A study of Danio rerio with 4 samples.

Results

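AP-1 and immediate-early genes were read in RNA of endothelial cells sorted from dissociated zebrafish of 2 genotypes. The member list held 10 genes: fosab, fosb, fosl1a, jun, junba, junbb, atf3, egr1, ier2a and dusp5. A row of the deposited table was taken as a member when its gene symbol equalled a listed name without regard to case, with fosab also accepted as fos, and 7 of 31951 rows met that rule. They carried the symbols FOS, FOSB, JUN, ATF3, egr1, ier2a and DUSP5. A further 3 rows, FOSL1 and 2 rows both named JUNB, carry a symbol in capitals that lacks the a or b ending of fosl1a, junba and junbb. They fall outside the rule and are described beside the members but not counted with them. Which JUNB row is junba and which is junbb was not settled, so those rows are given by their Ensembl identifiers.

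The study compared fish carrying kdrl:mcherry and kdrl:cxcr1 with fish carrying kdrl:mcherry alone, called wild-type here. The promoter of kdrl, a VEGF receptor gene of endothelium, drives the red protein used for sorting in both genotypes, and in the first it also drives the chemokine receptor gene cxcr1. Each of 2 independent clutches gave 1 library per genotype, so there were 4 libraries in all and 2 per genotype. The labels give embryos raised at a standard temperature, but neither the age at collection nor the number of fish per library. All 4 libraries came from cells that had been dissociated and sorted, and no library from undissociated tissue was analysed here.

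AP-1 is a transcription factor made of pairs of proteins of the Fos, Jun and ATF families, joined through leucine zippers. Many of its genes, with egr1, ier2a and others, are immediate-early genes. Their transcription starts within minutes of growth factors, mechanical strain or other stress, through kinases of the MAP kinase cascade acting on factors such as SRF, and needs no new protein. Several of their products, such as the dual-specificity phosphatases, shut the signal off again. In many tissues the same genes are known to be induced by enzymatic dissociation of cells.

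The values are FPKM, fragment numbers divided by transcript length and by library size, and can be compared between genes because of the first division. The depth of the libraries is unknown. Summed FPKM was 986557 to 1280969 per library, of which the RNA rn7sl1 took 24.0% to 39.8%, and the share of rows listed at 0 was 31.9% in both clutch 1 libraries and 42.0% to 43.5% in clutch 2. In clutch 1 the row cxcr1 read 12.8 FPKM in the library labelled kdrl:cxcr1 and 8.14 FPKM in the one labelled wild-type, and in clutch 2 it was listed at 0 in both. The other row of that symbol, CXCR1 ENSDARG00000054975, was listed at 0 and read 8.21 FPKM in clutch 1 and 2 with the label kdrl:cxcr1, and read 3.89 FPKM and was listed at 0 with the label wild-type. Its order followed the labels in clutch 2 and went against them in clutch 1. Neither row told the genotypes apart, and kdrl:cxcr1 and wild-type here mean the libraries labelled so. All 13 rows found for 14 of 16 endothelial markers were above 0 in every library, with kdrl at 128 to 274 FPKM and cdh5, the gene of endothelial cadherin, at 92.5 to 178 FPKM. Markers of other cells were present too, with 11 of 11 epidermal rows, 8 of 9 red cell rows and 15 of 16 neutrophil and macrophage rows above 0 in at least 1 library. Endothelial markers summed to 687 to 1213 FPKM per library. The sums were 1457 to 6520 FPKM for red cell, 923 to 1897 for neutrophil and macrophage, 154 to 897 for epidermal and 100 to 273 for muscle and neural markers. Such sums over unlike sets of genes do not give shares of cells.

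The members were among the most abundant transcripts of the sorted cells in both genotypes. FOS ranked 45 to 86 and JUN 60 to 101 among the 31951 rows of a library, FOSB 177 to 390, ier2a 186 to 380, egr1 228 to 483 and ATF3 610 to 959. DUSP5 stood lower, at rank 2240 to 5715. Of the 7 members, 5 read at least 100 FPKM in all 4 libraries, as did 477 rows or 1.49% of the whole table. Together the 7 members summed to 2865 FPKM in clutch 1 and 4194 FPKM in clutch 2 with kdrl:cxcr1, and to 3293 and 5131 FPKM without it. FOS alone made up 28.6% to 45.4% of that sum and JUN 29.2% to 38.3%. Of the FPKM without rn7sl1, the 7 members took 0.421% (clutch 1) and 0.506% (clutch 2) with kdrl:cxcr1, and 0.554% and 0.527% without it. By that share clutch 2 was the higher with kdrl:cxcr1 but not in wild-type.

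**Figure D1:**
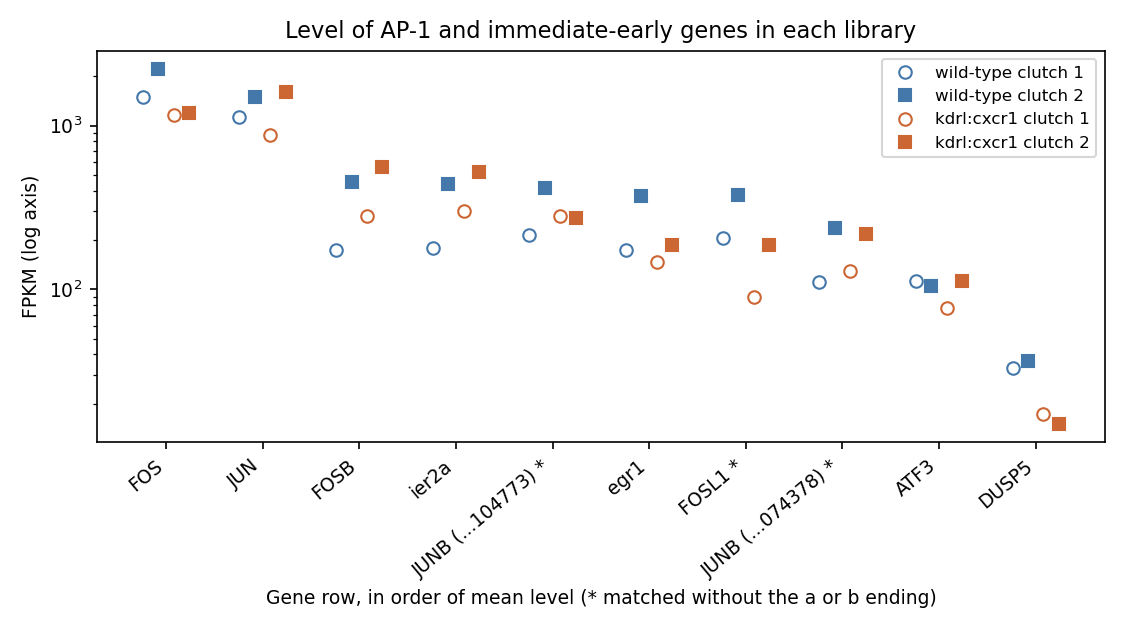
FPKM of the 7 members and the 3 further rows (marked *) in each of the 4 libraries, on a log axis, with genes in order of their mean. Colour gives the genotype, open circles are clutch 1 and filled squares clutch 2. FOS and JUN lie above every other row and DUSP5 below every other row in all 4 libraries.

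In order of the mean over 4 libraries, FOS stood at 1522 ± 496 FPKM (SD, n = 4) and JUN at 1278 ± 333 FPKM. Their ranges overlapped, and FOS was the higher of the pair in 3 of 4 libraries. Both lay clear of the other 8 rows, since the lowest JUN value was 881 FPKM and the highest FOSB value 560 FPKM. FOSB (366 ± 172 FPKM), ier2a (359 ± 151), the JUNB row ENSDARG00000104773 (296 ± 85.1), egr1 (219 ± 103), FOSL1 (215 ± 120), the JUNB row ENSDARG00000074378 (173 ± 61.8) and ATF3 (102 ± 16.5) then followed, each overlapping its neighbour in range. The DUSP5 range, with a mean of 25.5 ± 10.9 FPKM, lay wholly below that of ATF3.

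The genotype comparison asked whether the receptor transgene went with other levels of these genes. DUSP5, FOS and FOSL1 read lower in both kdrl:cxcr1 libraries than in either wild-type library. Their log2 fold changes were -1.06, -0.63 and -1.101, and none of them passed the test over all genes. FOSB and ier2a read higher in kdrl:cxcr1 within each clutch, but their groups overlapped. JUN, ATF3 and both JUNB rows took opposite signs in the 2 clutches. By limma's moderated test on log2(FPKM + 1), adjusted over 17723 genes, 0 of the 7 members and 0 of the 3 further rows were called, against 2 genes or 0.0113% of all genes tested (0 genes with the clutch as a block). All 10 rows passed the filter on low values. At an unadjusted p under 0.05 there was 1 member, DUSP5, where 2.27% of all genes tested were lower at that value.

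FOS, the Fos protein gene known in zebrafish as fosab, read 1164 FPKM (clutch 1) and 1197 FPKM (clutch 2) with kdrl:cxcr1, and 1494 and 2232 FPKM without it. Values below keep that order of clutches. The kdrl:cxcr1 values lay close together and below both wild-type values, of which clutch 2 was the higher. On the log2 scale the fold change stood at -0.63 (SE 0.40, limma adjusted p = 0.733), with -0.36 in clutch 1 and -0.90 in clutch 2. In bulk RNA a smaller share of cells that express a gene and less RNA per cell cannot be told apart.

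FOSB, whose protein also pairs with Jun proteins, read 281 and 560 FPKM with kdrl:cxcr1 and 173 and 450 FPKM without it. Clutch 2 was high and clutch 1 low in both genotypes, so the groups overlapped by genotype. On the log2 scale the difference was 0.51 (SE 0.59, limma adjusted p = 0.859), at 0.70 in clutch 1 and 0.31 in clutch 2. It turned to -0.18 without wild-type clutch 1.

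FOSL1, a Fos-related gene that in mammals answers later and longer than FOS, read 89.9 and 187 FPKM with kdrl:cxcr1 and 207 and 377 FPKM without it. Both kdrl:cxcr1 libraries lay below both wild-type libraries, and within each genotype clutch 2 was the higher. This row had the log2 fold change farthest from 0 of the 10, at -1.101 (SE 0.50, limma adjusted p = 0.699), with -1.19 in clutch 1 and -1.01 in clutch 2. It ranged from -1.62 without kdrl:cxcr1 clutch 2 to -0.58 without kdrl:cxcr1 clutch 1, and was -0.67 without wild-type clutch 2. With the clutch as a block the unadjusted limma p went from 0.0721 to 0.00957, and the limma adjusted p was 0.598.

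JUN, the partner that can pair with Fos proteins or with itself, read 881 and 1605 FPKM with kdrl:cxcr1 and 1131 and 1496 FPKM without it. The wild-type values lay between the 2 kdrl:cxcr1 values. As a log2 fold change this was -0.13 (SE 0.45, limma adjusted p = 0.970), and its sign differed between clutch 1 (-0.36) and clutch 2 (0.10).

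JUNB proteins pair with Fos proteins as well and in mammals can counteract JUN. The row ENSDARG00000104773 read 280 and 273 FPKM with kdrl:cxcr1 and 215 and 416 FPKM without it. The row ENSDARG00000074378 read 129 and 216 FPKM with kdrl:cxcr1 and 111 and 235 FPKM without it. In both rows the wild-type values enclosed the kdrl:cxcr1 values. Their log2 fold changes were -0.11 (SE 0.41) and 0.04 (SE 0.49), with limma adjusted p = 0.973 and 0.991.

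ATF3, a stress-induced member of the ATF family, varied least, at 77.3 and 112 FPKM with kdrl:cxcr1 and 112 and 105 FPKM without it. Of the 4 libraries, 3 lay within 105 to 112 FPKM, and kdrl:cxcr1 clutch 1 was the low one. Its log2 fold change stood at -0.21 (SE 0.34, limma adjusted p = 0.904) and 0.05 without kdrl:cxcr1 clutch 1.

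egr1, the gene of a zinc finger factor induced through SRF, read 146 and 187 FPKM with kdrl:cxcr1 and 173 and 371 FPKM without it. Wild-type clutch 2 was the highest library, as for FOS, and the groups overlapped because wild-type clutch 1 lay below kdrl:cxcr1 clutch 2. This gave a log2 fold change of -0.62 (SE 0.45, limma adjusted p = 0.758), and -0.07 without wild-type clutch 2.

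ier2a, an immediate-early gene of a nuclear protein outside the AP-1 family, read 299 and 518 FPKM with kdrl:cxcr1 and 178 and 441 FPKM without it. As for FOSB, clutch 2 was high in both genotypes and kdrl:cxcr1 was the higher library of each clutch. On the log2 scale it differed by 0.49 (SE 0.54, limma adjusted p = 0.853), at 0.75 in clutch 1 and 0.23 in clutch 2, and it was -0.16 without wild-type clutch 1.

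DUSP5 encodes a nuclear phosphatase that inactivates the kinase ERK and is itself induced by ERK signalling. It read 17.3 and 15.0 FPKM with kdrl:cxcr1 and 33.0 and 36.6 FPKM without it. The values of each genotype lay within a few FPKM of each other and the groups were well apart. On the log2 scale the difference was -1.07 (SE 0.36, unadjusted p = 0.0277, limma adjusted p = 0.699), with -0.90 in clutch 1 and -1.23 in clutch 2, and it stayed between -1.16 and -0.97 with any 1 library left out. With the clutch as a block the unadjusted limma p was 0.0346 and the limma adjusted p = 0.598. The unadjusted limma p was 0.0632 without the intensity trend and 0.0724 at the same sum without rn7sl1. It stayed under 0.05 with the other pseudocounts and filters, median-of-ratios scaling and quantile normalization. Fits with 1 library left out keep only 1 library in a group, so they are given here by fold change alone and do not count among these settings.

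**Figure D2:**
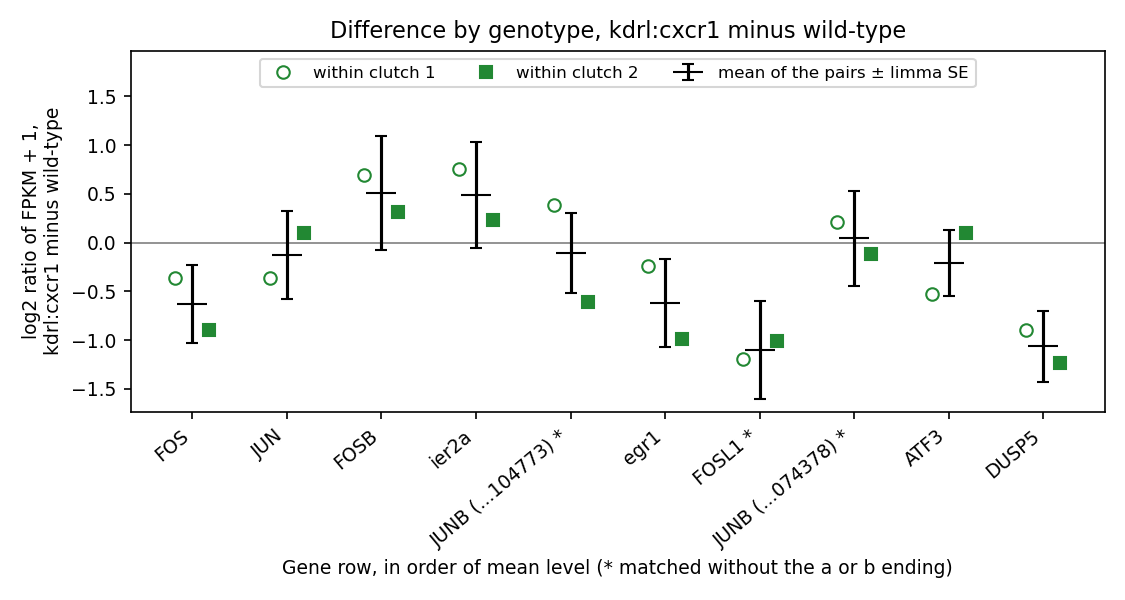
Log2 ratio of FPKM + 1, kdrl:cxcr1 minus wild-type, for each row within clutch 1 (open circles) and within clutch 2 (filled squares). The bars give the mean of both pairs with the standard error of limma's fit without a block, which includes the spread between clutches. FOS, egr1, FOSL1 and DUSP5 lie below 0 and FOSB and ier2a above 0 in both clutches, and none of the rows passed the test.

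Over the 7 members the median log2 fold change was -0.21, against 0.16 over all genes tested, and 5 members lay below the median of all genes. The groups did not overlap for 2 members, both lower, where 13.6% of all genes tested were lower in that way. Within both clutches 3 members read lower (FOS, egr1 and DUSP5) and 2 higher, where 21% and 36% of all genes did. Median-of-ratios scaling moved the median of all genes from 0.16 to -0.03, and after it egr1 and ATF3 were lower without overlap too. Relative to that median, DUSP5 stood at -1.22 as deposited and -1.26 after scaling, FOS at -0.79 and -0.83, egr1 at -0.77 and -0.82, FOSB at 0.35 and 0.30, and ier2a at 0.33 and 0.29.

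Ratios between genes of the same library do not depend on scaling between libraries. Their pairs were chosen after the values were seen, so a lack of overlap between genotypes adds no separate support. The ratio of FOSB to FOS was 0.241 and 0.467 in kdrl:cxcr1 and 0.116 and 0.202 in wild-type, so both kdrl:cxcr1 libraries lay above both wild-type libraries. The ratio of ier2a to egr1 was 2.05 and 2.77 in kdrl:cxcr1 and 1.03 and 1.19 in wild-type, again without overlap. The ratio of JUN to FOS was 0.757 in both clutch 1 libraries and 1.34 (kdrl:cxcr1) and 0.670 (wild-type) in clutch 2. FOSL1 to FOS overlapped, at 0.0772 and 0.156 in kdrl:cxcr1 and 0.138 and 0.169 in wild-type. DUSP5 to FOS was lower in kdrl:cxcr1 without overlap (0.0148 and 0.0125 against 0.0221 and 0.0164). With 2 libraries against 2, an exact permutation test, two-sided, gives no p below 0.333.

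Some markers of other cells differed by genotype beside these values. The sums of red cell markers and of muscle and neural markers overlapped between genotypes, while those of epidermal and of neutrophil and macrophage markers did not. Epidermal markers summed to 629 and 154 FPKM with kdrl:cxcr1 and 811 and 897 FPKM without it, with 10 of 11 rows above 0 in all 4 libraries. Neutrophil and macrophage markers summed to 1341 and 1897 FPKM with kdrl:cxcr1 and 923 and 1029 FPKM without it, with 11 of 16 rows above 0 in all 4 libraries and ptprc, a gene of all white blood cells, at 0 in every library. Their part in the values of the members was not tested.

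The comparison by clutch asked how far the same genes differed between the 2 batches of fish. Several members read higher in clutch 2 in both genotypes: FOSB, ier2a, egr1 and JUN did so without overlap, as did the JUNB row ENSDARG00000074378. None of the 7 members was called in this comparison (limma, adjusted over 17723 genes), against 3 genes or 0.0169% of all genes tested. At an unadjusted p under 0.05 there were 2 members, both higher, where 2.46% of all genes tested were higher at that value. Within both genotypes 5 members read higher in clutch 2, the 4 named and FOS, where 24.9% of all genes tested did. The 4 members without overlap stand beside 15.5% of all genes tested that were higher in clutch 2 in the same way.

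FOSB averaged 227 ± 76.4 FPKM (SD, n = 2) in clutch 1 and 505 ± 77.6 FPKM in clutch 2. This was the largest clutch difference among the 7 members, a log2 fold change of 1.18 (SE 0.38, limma adjusted p = 0.450), at 1.38 in wild-type and 0.99 in kdrl:cxcr1. ier2a averaged 238 ± 86.0 and 479 ± 54.7 FPKM, and the clutches differed by 1.05 on the log2 scale (SE 0.38, limma adjusted p = 0.504). The JUNB row ENSDARG00000074378 averaged 120 ± 12.5 and 226 ± 13.5 FPKM, with 0.90 (SE 0.30, limma adjusted p = 0.463) on the log2 scale. These rows kept the 2 clutches apart in both genotypes, also after median-of-ratios scaling and after scaling to the same sum without rn7sl1.

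The clutch differences of egr1 and JUN were smaller. egr1 averaged 159 ± 19.1 FPKM in clutch 1 and 279 ± 130 FPKM in clutch 2, with a log2 fold change of 0.73 that was 1.097 in wild-type and 0.36 in kdrl:cxcr1. JUN averaged 1006 ± 176 and 1550 ± 77.0 FPKM, a log2 fold change of 0.63. When each library was scaled to the same sum without rn7sl1, both overlapped between clutches, as egr1 did after median-of-ratios scaling. DUSP5, at 25.1 ± 11.1 and 25.8 ± 15.3 FPKM, had a log2 fold change of -0.02 between clutches (SE 0.60), ATF3 0.22 (SE 0.34) and FOS 0.31 (SE 0.47).

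**Figure D3:**
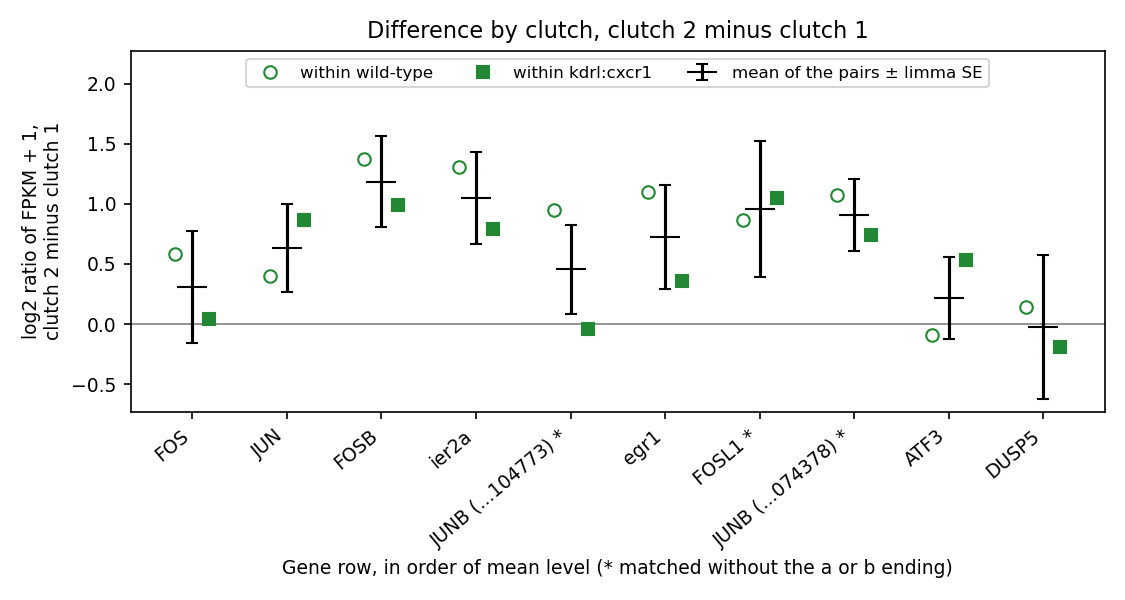
Log2 ratio of FPKM + 1, clutch 2 minus clutch 1, for each row within wild-type (open circles) and within kdrl:cxcr1 (filled squares). The bars give the mean of both pairs with the standard error of limma's fit without a block, which includes the spread between genotypes. FOSB, ier2a, FOSL1, egr1, JUN, FOS and the JUNB row ENSDARG00000074378 lie above 0 in both genotypes, while DUSP5 lies near 0.

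Over the 7 members the median log2 fold change by clutch was 0.63, against -0.06 over all genes tested, and 7 of 7 lay above the median of all genes. Scaling to the same sum without rn7sl1 moved the median of all genes to -0.48 and that of the members to 0.14. Relative to the median of all genes, FOSB then stood at 1.17, ier2a at 1.03, egr1 at 0.71, JUN at 0.61, FOS at 0.29, ATF3 at 0.20 and DUSP5 at -0.03. Endothelial markers also differed by clutch, with a sum of 763 and 687 FPKM in clutch 1 (kdrl:cxcr1, then wild-type) and 982 and 1213 FPKM in clutch 2. Muscle and neural markers summed to 261 and 273 FPKM in clutch 1 and to 100 and 123 FPKM in clutch 2, and red cell markers to 6520 and 3066 FPKM in clutch 1 and to 1457 and 1644 FPKM in clutch 2. Their part in the clutch differences of the members was not tested.

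Other genes of the pathway were read from 6 lists, whose members were called in 1 case only, the chaperone gene HSP90AB1 by genotype. Other AP-1 family genes gave 18 rows past the filter of 23 found, and 0 were called in either direction or comparison. By genotype 9 lay above and 9 below the median of all genes, with a list median of 0.15. JUND, the Jun gene least tied to stimulation in mammals, read 64.8 and 90.5 FPKM with kdrl:cxcr1 and 123 and 137 FPKM without it (-0.75 on the log2 scale, SE 0.33, limma adjusted p = 0.699). The JDP2 row ENSDARG00000040137, for a repressor that pairs with Jun, read 3.70 and 6.24 against 9.31 and 15.8 FPKM. The small Maf gene maff read 69.6 and 73.0 against 50.9 and 41.1 FPKM, and MAFA stood at 0.324 and 0.678 against 2.45 and 3.37 FPKM. JUND, JDP2 and MAFA were lower and maff higher in kdrl:cxcr1 without overlap, and none of the 4 passed the test. MAFA passed the filter of 1 FPKM only through its wild-type values, so its lack of overlap followed from the filter. Of the 18 rows, 5 were higher and 3 lower without overlap, where 26% and 13.6% of all genes tested were.

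By clutch the median of these AP-1 family genes was 0.33. The other JDP2 row, ENSDARG00000020133, read 543 (kdrl:cxcr1) and 442 (wild-type) FPKM in clutch 1 and 1012 and 807 FPKM in clutch 2. It was higher in clutch 2 in both genotypes, with limma adjusted p = 0.541.

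Some ATF proteins bind the related CRE site and can pair with Fos or Jun. The list of ATF and CREB genes, which also held CEBPB, CEBPD, cebpg, DDIT3 and XBP1, gave 19 rows of 19 past the filter. It had 0 calls in either comparison. The list median was -0.02 by genotype and -0.06 by clutch. DDIT3, a factor gene of the unfolded protein response, read 68.0 and 124 FPKM with kdrl:cxcr1 and 44.8 and 55.8 FPKM without it (log2 fold change 0.87, SE 0.41). The CREB5 row ENSDARG00000099002 read 9.66 and 23.2 against 23.7 and 46.6 FPKM, creb1a 26.2 and 31.2 against 23.9 and 9.35 FPKM, and the ATF7 row ENSDARG00000011298 14.4 and 12.7 against 7.04 and 10.1 FPKM. By clutch, cremb had a log2 fold change of 1.88, CREB1 -1.55 and atf5b -1.11, so this list held differences of both signs.

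Other immediate-early transcription factors gave 18 rows of 19 past the filter, among them maff again, and 0 calls. The list median was 0.02 by genotype, and 17 of the 18 lay above the median of all genes by clutch, with a list median of 0.19. The MYC row ENSDARG00000045695 read 30.2 and 52.7 FPKM with kdrl:cxcr1 and 20.4 and 13.6 FPKM without it. egr4, a relative of egr1, read 4.11 and 2.93 against 8.39 and 11.7 FPKM. ID1, an inhibitor of bHLH factors, read 65.0 and 40.5 against 79.3 and 144 FPKM, and tsc22d3, a glucocorticoid-induced gene in mammals, 45.8 and 42.7 against 62.7 and 85.3 FPKM. MYC was higher and the other 3 lower in kdrl:cxcr1 without overlap, each with limma adjusted p = 0.699. Over the whole list 5 rows were higher and 4 lower in that way, where 26% and 13.6% of all genes tested were. By clutch the first genes were the MYC row ENSDARG00000007241 (log2 fold change 1.16), NR4A3 (0.63) and the NR4A2 row ENSDARG00000044532 (0.77).

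Other early-response and feedback genes gave 31 rows of 33 past the filter and 0 calls. By genotype 25 of the 31 lay below the median of all genes, with a list median of -0.18, and 8 were lower and 3 higher without overlap, where 13.6% and 26% of all genes were. The phosphatase genes DUSP1 and DUSP2, which like DUSP5 switch off MAP kinases, were among the 8. DUSP1 read 133 and 159 FPKM with kdrl:cxcr1 and 226 and 277 FPKM without it (log2 fold change -0.78, SE 0.32). DUSP2 read 40.8 and 17.5 against 79.0 and 51.1 FPKM (-1.21, SE 0.51). The PLK2 row ENSDARG00000090752, for a stress-induced kinase, read 8.53 and 30.3 against 37.7 and 78.9 FPKM. The anti-apoptotic gene mcl1a read 293 and 429 FPKM with kdrl:cxcr1 against 153 and 86.3 FPKM without it (1.62 on the log2 scale, SE 0.41, limma adjusted p = 0.699), in the opposite direction.

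By clutch, without overlap, 14 of the 31 were higher in clutch 2 and 1 lower, where 15.5% and 20.4% of all genes were, and the list median was 0.35, or -0.08 at the same sum without rn7sl1, where the median of all genes was -0.48. The ZFP36L1 row ENSDARG00000021443, for a protein that speeds decay of AU-rich mRNAs, read 78.7 and 80.9 FPKM in clutch 1 (kdrl:cxcr1, then wild-type) and 180 and 181 FPKM in clutch 2. Between clutches its log2 fold change reached 1.17 (SE 0.29), with limma adjusted p = 0.408. The related ZFP36L2 stood at 1.19 and the kinase gene sgk1 at 0.88.

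Upstream genes of the SRF and MAP kinase route gave 26 rows of 26 past the filter, 0 calls and list medians of 0.07 by genotype and 0.03 by clutch. MAPK3, an ERK kinase gene, read 23.2 and 38.6 FPKM with kdrl:cxcr1 and 11.7 and 16.1 FPKM without it. The genes of the kinases above ERK differed in sign, since MAP2K2 read 20.3 and 27.8 against 12.1 and 9.69 FPKM and map2k2b 15.2 and 5.79 against 19.2 and 30.9 FPKM. By clutch MAPK10 stood at -1.78 on the log2 scale.

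Stress genes, which dissociation and heat can also induce, were a list of chaperones of several compartments with ubiquitin genes and hsf1, and 19 rows of 21 passed the filter. HSP90AB1 alone was called, at 694 and 611 FPKM with kdrl:cxcr1 against 1.97 and 0.436 FPKM without it (log2 fold change 8.30, SE 0.46, limma adjusted p = 0.0259). Its wild-type values lay near the filter of 1 FPKM, and how fragments of near-identical genes were counted is not known. With the clutch as a block HSP90AB1 was not called (limma adjusted p = 0.0692). Leaving out any 1 of the 4 libraries, of either genotype or clutch, also ended its call. hsp70l, the inducible HSP70 gene, read 580 and 644 FPKM with kdrl:cxcr1 and 1277 and 1359 FPKM without it (-1.11 on the log2 scale, SE 0.34, limma adjusted p = 0.699). The ubiquitin genes ubc (407 and 457 against 183 and 152 FPKM) and UBB (1063 and 1473 against 655 and 643 FPKM) lay on the other side. By clutch this list had a median of 0.12, led by HSPH1 (log2 fold change 0.72), HSPE1 (1.07), the mitochondrial partner of HSP60, and the SERPINH1 row ENSDARG00000075954 (-0.52), for a collagen chaperone of the endoplasmic reticulum.

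**Figure D4:**
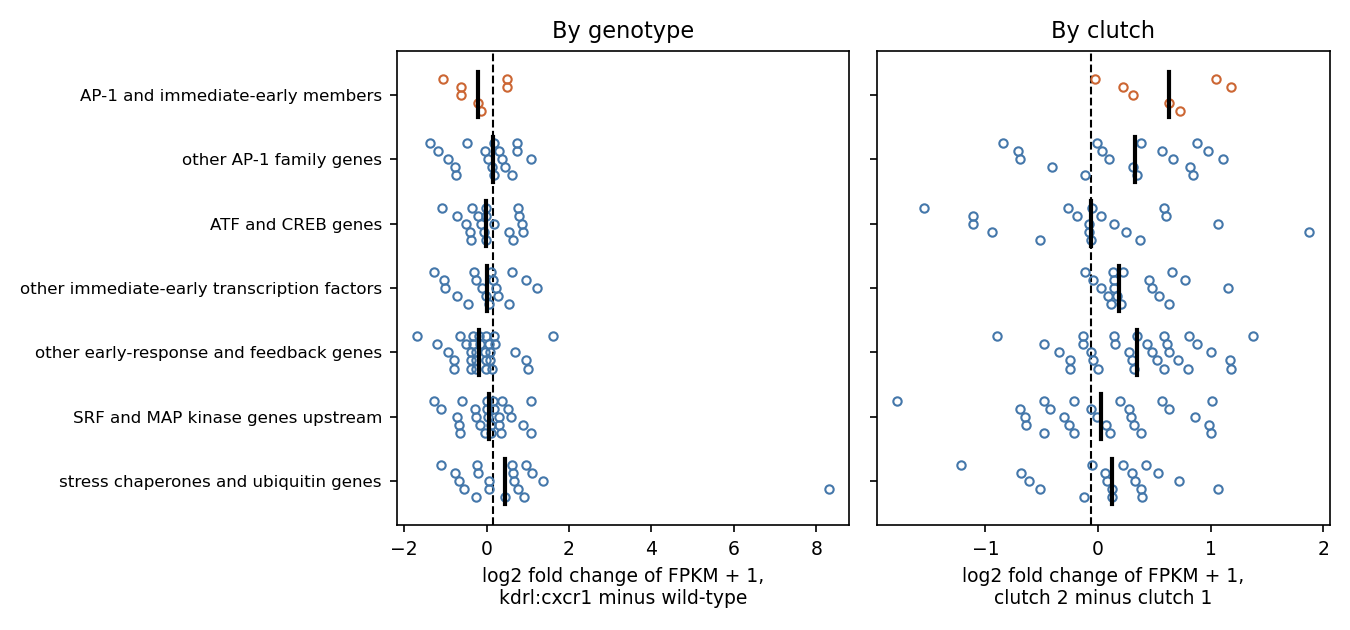
Log2 fold change of FPKM + 1 for each row past the filter in the 7 members and the 6 lists, kdrl:cxcr1 minus wild-type on the left and clutch 2 minus clutch 1 on the right. Points are gene rows, short bars list medians, and the dashed line is the median of all genes tested (0.16 and -0.06). The members lie mostly left of the line by genotype and right of it by clutch, and the point near 8 is HSP90AB1.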

How the data were processed

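The authors deposited 1 table of FPKM values with 1 column per library. Per the submitters' processing notes, the tools were cutadapt, TopHat2 (2.0.11) and Cufflinks (2.2.1) on GRCz10. For the annotation, the strand setting and any scaling of libraries, nothing was given in the sources used here. Ratios between libraries of values below 0.5 FPKM showed no whole-read steps (at most 1.62% of genes in any log2 bin 0.02 wide), so depth is unknown. All 4 columns were matched by title. A symbol was found for 26120 of 31951 identifiers, without coordinates.

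Values were analysed as log2(FPKM + 1), which understates the change of low genes, with limma 3.58.1 in R 4.3.3. Genes with at least 1 FPKM in at least 2 libraries were kept (17723). Moderated tests (limma, trend on intensity, two-sided) were called at a Benjamini-Hochberg adjusted p under 0.05. The tests had 5.69 degrees of freedom by genotype, of which 3.69 came from the other genes, and 5.09 by clutch. Only the moderated test, without the filter or scalings, was run on simulated log2 values, which held no clutch effect. How many changes it recovered is not reported here. The clutch pairs the libraries, since the titles give it, and deviations from the genotype means correlated at 0.116 within a clutch. Standard errors and p-values come from the fit without that pairing unless a block is named.

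The members and lists were chosen with earlier results of these data known. All members are named, and from each list the genes called, up to 4 others by p by genotype and up to 3 by clutch, though some of these are not reported here. List entries matched a symbol, or a symbol in capitals without the final a or b, with 1 mismatched row left out. Near-identical copies, such as rows sharing a symbol, and overlapping genes are uncertain, as no source states how fragments were counted. Alternatives were 2 other pseudocounts, 2 filters, 3 scalings, no trend, the other factor as a block and leaving out each library.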

Additional observations from a re-analysis of the deposited data

How the results depend on the processing

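Depth is unknown, so no counting error can be given, and 2 libraries per group limit every comparison. Among the 13 alternatives, the 2 filters, no trend and the block could not change a fold change of these rows. Their signs were fixed in advance and are counted below as kept. Of 130 log2 fold changes of the 10 rows by genotype under all 13 alternatives, 120 kept their sign, and of 130 by clutch 121 did. Under none of them did a row pass the test. With the clutch as a replicate block the genotype comparison gave 0 called genes, down from 2, and a pseudocount of 0.1, no filter, no intensity trend or leaving out any 1 library gave 0 as well. By clutch 3 genes were called, the replicate block left 3, a pseudocount of 0.1, no filter and no trend gave 1, and leaving out a library gave 0 to 15 (15 when wild-type clutch 2 was left out and 11 when kdrl:cxcr1 clutch 2 was). The cause of these changes was not tested. By genotype with 1 library left out, JUN ranged from -0.56 to 0.30, ATF3 from -0.48 to 0.05, FOSB from -0.18 to 1.19, ier2a from -0.16 to 1.14, the JUNB row ENSDARG00000104773 from -0.59 to 0.36 and ENSDARG00000074378 from -0.49 to 0.58. The last was -0.18 after median-of-ratios scaling and -0.08 after quantile normalization. By clutch with 1 library left out, FOS ranged from -0.14 to 0.76, ATF3 from -0.04 to 0.48 and DUSP5 from -0.64 to 0.59. Scaling to the same sum without rn7sl1 turned FOS to -0.19, ATF3 to -0.28 and ENSDARG00000104773 to -0.04, and quantile normalization turned FOS to -0.06 and ATF3 to -0.0004. The former rescales each library as a whole, and the latter gives all libraries the same distribution of values.

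List medians moved by at least the SD between their medians in the separate pairs of libraries in these cases. By genotype, the early-response and feedback list stood at -0.16 with a pseudocount of 5, -0.15 without a filter, -0.16 with the stricter filter and -0.16 at the same sum without rn7sl1. The immediate-early factor list stood at 0.06 without a filter and with the stricter one. The stress gene list stood at 0.34 with a pseudocount of 5 and 0.26 with the stricter filter. After median-of-ratios scaling and after quantile normalization, in that order, the medians were -0.04 and -0.01 for other AP-1 genes, -0.24 and -0.15 for ATF and CREB genes, -0.15 and -0.18 for immediate-early factors, -0.40 and -0.28 for early-response genes, -0.13 and -0.11 for upstream genes and 0.24 and 0.26 for stress genes. By clutch, a pseudocount of 5 gave 0.21 for other AP-1 genes. Quantile normalization gave 0.49 for the members, -0.19 for ATF and CREB, 0.24 for early-response genes and -0.04 for stress genes. The same sum without rn7sl1 gave 0.14 for the members, -0.14 for other AP-1 genes, -0.53 for ATF and CREB, -0.24 for immediate-early factors, -0.08 for early-response genes, -0.43 for upstream genes and -0.38 for stress genes, where the median of all genes was -0.48.

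With 1 library left out, list medians by genotype ranged from -0.56 to 0.05 (members), -0.07 to 0.17 (other AP-1), -0.20 to 0.16 (ATF and CREB), -0.25 to 0.18 (immediate-early factors), -0.34 to 0.09 (early-response) and 0.13 to 0.32 (stress genes). By clutch they ranged from 0.27 to 0.76 (members), 0.10 to 0.53 (other AP-1), -0.16 to 0.06 (ATF and CREB), 0.22 to 0.40 (immediate-early factors), 0.33 to 0.51 (early-response) and 0.08 to 0.34 (stress genes).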
